A study of Homo sapiens with 4 samples.

Results

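The genes described here are 9 genes of antigen presentation by major histocompatibility complex (MHC) class I, taken by name from a list of class I heavy chains, their light chain, the peptide loading machinery and the transcriptional activator NLRC5. They are HLA-B, HLA-C, HLA-E, HLA-F, B2M, TAP1, TAP2, TAPBP and NLRC5. All 9 were found, each as 1 row on the primary assembly, among 64252 gene identifiers in the count table, and all 9 were among the 17461 identifiers with enough counts to be tested. The study measured RNA by sequencing in J.gamma1, a derivative of the human leukemic T cell line Jurkat that is known for lacking phospholipase C gamma 1. Cells of this line that received a control short hairpin RNA (shNC, 2 libraries) were compared with cells that received a hairpin against the fatty acid elongase gene ELOVL5 (shELOVL5, 2 libraries). All 4 libraries thus come from 1 cell line, and cells without a hairpin were not analysed here. The labels do not say whether the 2 libraries of a group came from separate cultures. Every p-value below therefore reflects the spread among these 4 libraries alone, and that spread may be technical.

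MHC class I molecules display peptides from inside the cell to CD8 T cells and natural killer cells. A heavy chain pairs with beta-2 microglobulin, the product of B2M, in the endoplasmic reticulum. The TAP1 and TAP2 proteins form the pump that brings peptides in, and tapasin, the product of TAPBP, holds the empty molecule at that pump until a peptide binds. NLRC5 has no DNA-binding domain of its own. It acts at class I promoters through the RFX proteins and other bound factors, and interferon signalling, in part through IRF1, is a known inducer of the whole set.

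Libraries held 16254002 to 17338719 counts, so 3 counts, the limit that a count of 0 allows, corresponded to 0.173 to 0.185 CPM (counts scaled to the library total). ELOVL5 itself fell from 348 ± 7.47 to 70.9 ± 1.27 CPM (SD, n = 2). All 10 T cell markers examined were detected, with a summed level of 1812 to 1885 CPM per library. Of these, CD3E and CD3G rose (log2 fold change 0.32 and 0.25) and TRAC, CD3D, PTPRC and LCK fell (by 0.41, 0.26, 0.20 and 0.17 on the log2 scale). With shELOVL5 replicate 1 left out CD3G and PTPRC did not pass (adjusted p = 0.0617 and 0.0604), nor did CD3G and LCK with shELOVL5 replicate 2 left out (0.0505 and 0.0696). Of markers of other cells, CD79A stood out with 43.5 and 37.2 CPM in shNC against 26.6 and 24.8 in shELOVL5. The summed B cell markers, mostly CD79A, stood at 47.7 and 40.4 CPM in shNC and 29.8 and 26.9 CPM in shELOVL5. Myeloid markers summed to 0.706 to 1.68 CPM, erythroid markers to 0.242 to 0.589 CPM and epithelial or fibroblast markers to 6.86 to 9.87 CPM, and LYZ, CSF1R, HBB, ALAS2, EPCAM and COL1A2 had 0 counts in every library. The part of CD79A-expressing cells in the results below was not tested, and in bulk RNA more cells of a type and more RNA per cell cannot be told apart.

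HLA-B, HLA-C and B2M rose in shELOVL5 by 1.37-fold to 1.48-fold, and no gene of the 9 fell. The fitted log2 fold change was positive for all 9, with a median of 0.39 against 0.006 over all tested genes. The test was edgeR's quasi-likelihood test with Benjamini-Hochberg adjustment over all 17461 identifiers and a threshold of 0.05. Over all tested genes 9.22% were called higher and 11.2% lower by that rule, beside the 3 of 9 called higher here. The balance over all genes turned when libraries were scaled by total counts, with 1933 higher and 1674 lower against 1610 and 1952 with TMM scaling, and the 3 genes were called higher under both. For 8 of the 9 genes both shELOVL5 libraries lay above both shNC libraries, which was true of 30.0% of all tested genes. TAP1 was the exception. The 3 called genes were also the 3 most abundant per transcript length. Among the other 6, NLRC5 had the smallest adjusted p (0.0939).

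**Figure D1:**
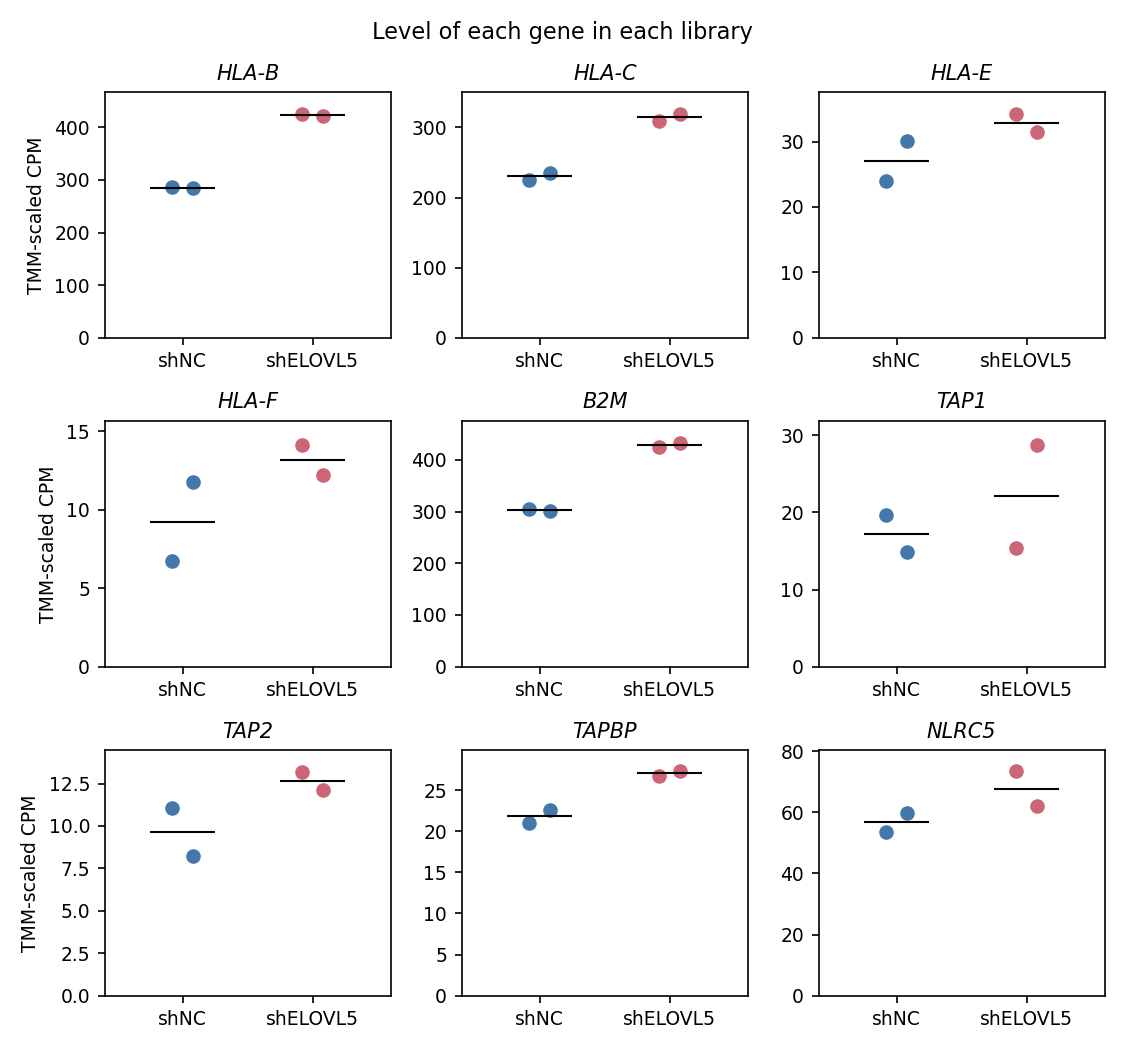
Level of each of the 9 genes in each library, in CPM scaled by trimmed mean of M values (TMM), with shNC on the left and shELOVL5 on the right of each panel. Points are libraries and lines are group means; in HLA-B, HLA-C and B2M the groups are far apart beside the spread within them, while in TAP1 they overlap.

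HLA-B and HLA-C encode classical class I heavy chains, the highly polymorphic chains that present most peptides to CD8 T cells. HLA-B (ENSG00000234745, GRCh38 chromosome 6, 31269491 to 31357188, minus strand) had 4855 and 4582 counts in shNC and 7439 and 6978 in shELOVL5. On the TMM-scaled CPM scale these were 286 and 286 against 426 and 422. The libraries of a group were nearly equal and the groups did not overlap. Its log2 fold change was 0.57 (SE 0.0387, adjusted p = 5.07e-06), the largest of the 9.

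HLA-C (ENSG00000204525, chromosome 6, 31268749 to 31272130, minus strand) had 225 and 235 CPM in shNC and 309 and 320 CPM in shELOVL5. Both shELOVL5 libraries again lay above both controls. The log2 fold change was 0.45 (SE 0.0446, adjusted p = 7.04e-05). The ratio of HLA-B to HLA-C counts within a library, which does not depend on how libraries are scaled, was 1.27 and 1.22 in shNC and 1.38 and 1.32 in shELOVL5. The ratio was higher in both shELOVL5 libraries than in either control, and was not tested.

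HLA-E and HLA-F encode nonclassical heavy chains. HLA-E presents peptides cut from the leader sequences of other class I chains to the natural killer receptor CD94-NKG2A, and HLA-F is a less studied chain that is partly kept inside the cell. HLA-E (ENSG00000204592, chromosome 6, 30489467 to 30494205, plus strand) had 23.9 and 30.0 CPM in shNC and 34.3 and 31.5 CPM in shELOVL5. The second control library came close to the second shELOVL5 library. The log2 fold change of 0.29 (SE 0.129) did not pass (adjusted p = 0.149). HLA-F (ENSG00000204642, chromosome 6, 29722775 to 29738528, plus strand) had 6.71 and 11.8 CPM in shNC and 14.1 and 12.2 CPM in shELOVL5. Its control libraries differed from each other more than the second control differed from either shELOVL5 library. Its log2 fold change of 0.51 was as large as that of B2M but its SE was 0.26, and it did not pass (adjusted p = 0.207).

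HLA-E and HLA-F both passed when shNC replicate 2 was left out, with log2 fold changes of 0.46 (adjusted p = 0.0473) for HLA-E and 0.97 (adjusted p = 0.0258) for HLA-F. Without shNC replicate 1 they were 0.13 and 0.16 and did not pass. HLA-B and HLA-C together held 92.6% to 94.4% of the counts of the 4 heavy-chain genes in every library. Since these genes are close in sequence, their counts were also added into 1 row, an alternative chosen after the values were seen. The sum was 542 and 562 CPM in shNC and 783 and 786 CPM in shELOVL5, with a log2 fold change of 0.51 (SE 0.0363, adjusted p = 7.2e-06).

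B2M encodes the invariant light chain that class I heavy chains generally need in order to reach the surface. It lies outside the MHC, on chromosome 15 (ENSG00000166710, 44711487 to 44718877, plus strand). Its level was 305 and 301 CPM in shNC and 425 and 434 CPM in shELOVL5, with no overlap between groups. The log2 fold change was 0.50 (SE 0.0391, adjusted p = 1.36e-05). The ratio of summed heavy-chain counts to B2M counts was 1.78 and 1.87 in shNC and 1.84 and 1.81 in shELOVL5, and the groups overlapped. HLA-B over B2M was 0.937 and 0.949 in shNC and 1.00 and 0.974 in shELOVL5, higher in both shELOVL5 libraries. HLA-C over B2M was 0.739 and 0.782 in shNC and 0.727 and 0.738 in shELOVL5, lower in both. These ratios were not tested.

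**Figure D2:**
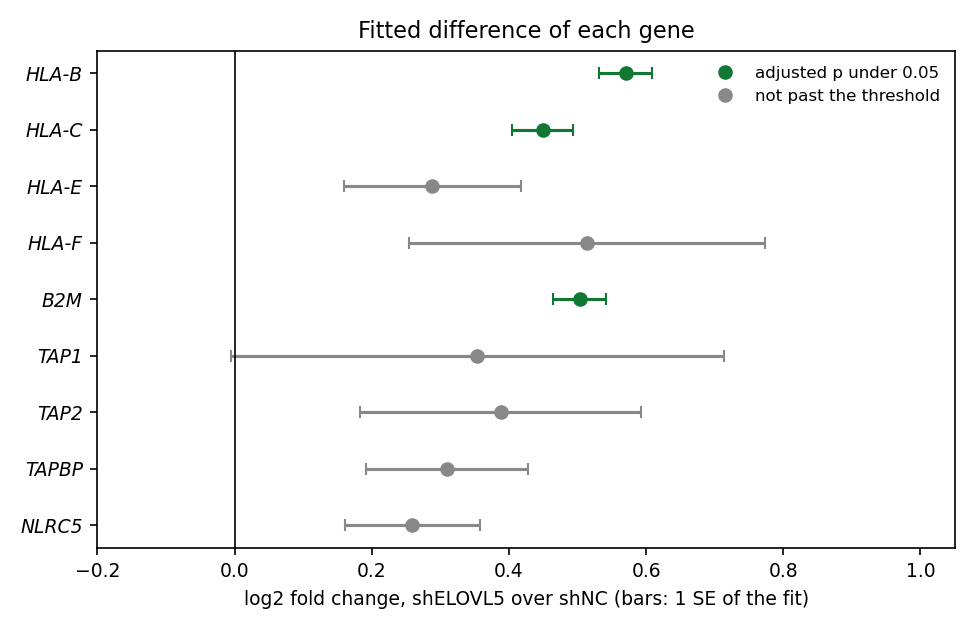
Fitted log2 fold change of shELOVL5 over shNC for each gene, with bars of 1 standard error of the fit; green points passed the adjusted threshold. All 9 points lie to the right of 0, and the 3 green points have the shortest bars.

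Promoter stretches of the 3 genes that rose, and of HLA-F as a heavy chain that did not pass, are shown because class I promoters and that of B2M are textbook targets of one shared set of factors. They were read from the RefSeq promoter table (GRCh38.p14), which covers 250 bases before to 50 after a start site and matched 7 of the 9 genes with 8 entries. HLA-E and NLRC5 had no entry, so their promoters were not searched. These are reference sequences, not those of the cell line. Each runs 5′ to 3′ on the gene's strand and ends before the start site, with matches to the searched letters in capitals. HLA-B lies at chr6:31357226-31357361 (minus strand), HLA-C at chr6:31272139-31272289 (minus strand), HLA-F at chr6:29723274-29723386 (plus strand) and B2M at chr15:44711368-44711477 (plus strand).
HLA-B: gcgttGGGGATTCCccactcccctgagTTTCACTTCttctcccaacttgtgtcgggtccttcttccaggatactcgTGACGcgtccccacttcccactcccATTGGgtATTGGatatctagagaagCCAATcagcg
HLA-C: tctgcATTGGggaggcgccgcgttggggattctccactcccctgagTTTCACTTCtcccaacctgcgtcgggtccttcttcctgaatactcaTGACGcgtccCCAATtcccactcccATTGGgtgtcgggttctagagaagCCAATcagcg
HLA-F: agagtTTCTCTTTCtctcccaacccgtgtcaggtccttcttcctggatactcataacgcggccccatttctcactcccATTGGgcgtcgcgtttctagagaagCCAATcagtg
B2M: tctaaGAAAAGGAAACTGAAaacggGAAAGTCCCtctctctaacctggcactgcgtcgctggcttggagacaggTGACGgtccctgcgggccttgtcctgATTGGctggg

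The letters searched on both strands of the whole 300-base window were GAANNGAAA and GAAANNGAA for the interferon regulatory factor (IRF) element, TGACG for the element of CREB and ATF proteins, CCAAT for the box bound by NFY, and GGGNNTTNC for the NF-kB element. The first pair of motifs can overlap each other. These letters were chosen with the promoters in view, so the matches are a description. An IRF match stood in 7 of the 8 entries, at 151 bases before the start site in HLA-C, at 155 bases in HLA-B and HLA-F and at 144 and 138 bases in B2M. Of all 35116 promoter entries 14.5% held one. TGACG was found in HLA-B, HLA-C, B2M and TAP2, against 24.6% of all entries, and CCAAT in HLA-B, HLA-C, HLA-F, B2M and 1 of the 2 TAP1 entries, against 34.6%. HLA-B, HLA-C and B2M held an IRF match, TGACG and CCAAT together, as did 1.03% of all entries. The NF-kB letters matched in HLA-B, B2M, TAPBP and 1 TAP1 entry, against 16.2% of all entries.

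TAP1 and TAP2 encode the subunits of the peptide transporter. TAP1 (ENSG00000168394, chromosome 6, 32845209 to 32853978, minus strand) had 335 and 238 counts in shNC and 270 and 476 in shELOVL5. In CPM these were 19.7 and 14.8 against 15.4 and 28.8, so the first shELOVL5 library lay among the controls and the second far above them. The exact Poisson 95% intervals of the shELOVL5 counts, 239 to 304 and 434 to 521, do not meet, so counting error alone does not cover the gap between these libraries. Such intervals cover counting error only. They also take the values as plain read counts, and the counting step is not stated. The log2 fold change of 0.35 (SE 0.36) did not pass (adjusted p = 0.586). It was 0.73 without shELOVL5 replicate 1 (adjusted p = 0.0502) and -0.16 without shELOVL5 replicate 2 (adjusted p = 0.716).

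PSMB9, an immunoproteasome subunit gene whose annotated span contains TAP1 on the opposite strand, went the other way within the shELOVL5 group, with 258 and 128 counts against 218 and 155 in shNC. PSMB9 shares no annotated exon bases with TAP1, and a link between their counts was not tested. TAP2 (ENSG00000204267, chromosome 6, 32821833 to 32838780, minus strand) had 11.1 and 8.23 CPM in shNC and 13.2 and 12.1 CPM in shELOVL5, with no overlap. Its log2 fold change of 0.39 (SE 0.205) did not pass (adjusted p = 0.222). It was 0.61 without shNC replicate 1 and 0.18 without shNC replicate 2, and passed in neither case (adjusted p = 0.116 and 0.669). The ratio of TAP1 to TAP2 counts was 1.78 and 1.80 in shNC but 1.17 and 2.38 in shELOVL5.

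TAPBP (ENSG00000231925, chromosome 6, 33299694 to 33314387, minus strand), the tapasin gene, had 21.0 and 22.6 CPM in shNC and 26.7 and 27.4 CPM in shELOVL5. The groups did not overlap and replicates were close, but the log2 fold change of 0.31 (SE 0.118) did not pass (adjusted p = 0.0944). NLRC5 (ENSG00000140853, chromosome 16, 56989485 to 57083531, plus strand) had 53.5 and 59.8 CPM in shNC and 73.4 and 62.1 CPM in shELOVL5. The second shELOVL5 library was only just above the second control. Its log2 fold change was 0.26 (SE 0.0984, adjusted p = 0.0939), and 0.12 without shELOVL5 replicate 1.

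**Figure D3:**
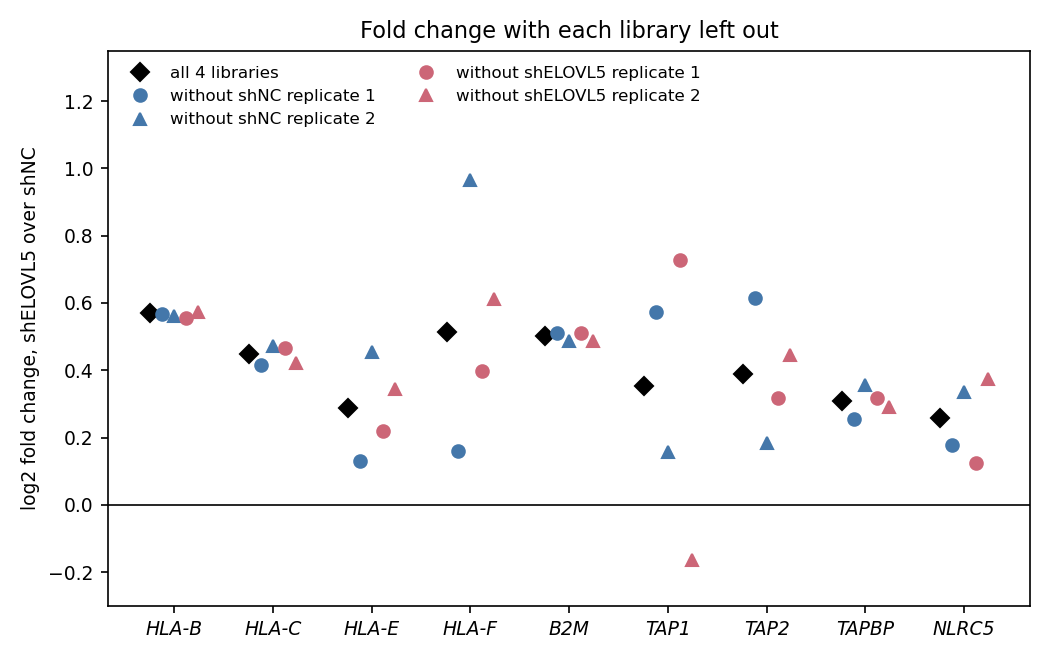
Log2 fold change of each gene with all 4 libraries (black diamonds) and with each library left out in turn (blue for a control library, red for a shELOVL5 library). HLA-B, HLA-C and B2M hardly move, whereas HLA-F ranges from 0.16 to 0.97 and TAP1 from -0.16 to 0.73.

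Levels can be set beside each other only per transcript length, here the longest principal transcript of the annotation. In shNC, HLA-B had 185 ± 0.129, B2M 178 ± 1.77 and HLA-C 150 ± 4.47 CPM per kb (SD, n = 2). The remaining genes were more than 10 times lower, from TAPBP at 11.6 ± 0.601 and HLA-E at 10.4 ± 1.67 through NLRC5 at 8.31 ± 0.654 and TAP1 at 5.84 ± 1.17 to HLA-F at 5.65 ± 2.19 and TAP2 at 3.86 ± 0.805 CPM per kb. The values of HLA-E overlapped those of TAPBP, and those of HLA-F overlapped those of TAP1 and TAP2. Divided by the length of all annotated exons instead, B2M stood at 49.8 CPM per kb, below HLA-C at 91.8, and TAPBP at 4.31, below HLA-E at 9.06 and NLRC5 at 4.57. In shELOVL5 the per-transcript order of the top 3 was unchanged, at 274 ± 1.54, 252 ± 3.70 and 205 ± 5.18 CPM per kb.

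**Figure D4:**
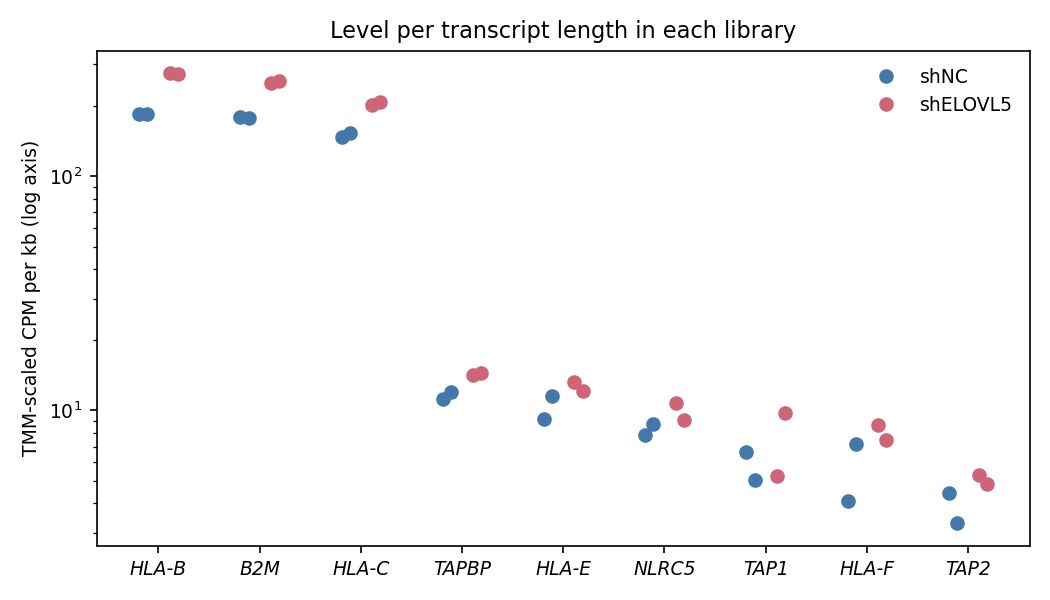
TMM-scaled CPM per kb of the longest principal transcript, on a log axis, for each gene and library, ordered by the shNC mean. HLA-B, B2M and HLA-C form a high group between 147 and 275 CPM per kb, and the other 6 genes lie between 3.29 and 14.5.

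The reading of the HLA rows has a limit that lies in the reference. Of the transcripts that the GENCODE name table gives to these genes, 48 of 58 for HLA-B, 81 of 91 for HLA-C, 18 of 21 for HLA-E and 91 of 106 for HLA-F are not on the primary assembly, as are 21 of 27 for TAP1, 32 of 37 for TAP2, 42 of 51 for TAPBP and 14 of 29 for B2M. NLRC5 has none elsewhere. The count table holds 7661 identifiers outside the primary annotation, with 2.1% of all counts, and no table used here gives them a symbol. Copies of the 9 genes on alternate haplotypes therefore could not be told from other rows and were not added to the values above, which may hold only part of a gene's reads. Of these identifiers 1172 were tested, of which 64 were called higher and 70 lower, with a median log2 fold change of 0.034.

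Exons of other genes also overlap some of these rows, and nothing used here says whether strand was taken into account in counting. A pseudogene on the opposite strand, AL671883.2, shares 17.8% of the exon bases of HLA-B and had 107 and 85 counts in shNC and 130 and 182 in shELOVL5. The pseudogene AL645939.1 shares 16.1% of HLA-F and had 12 to 53 counts. PSMB8-AS1 overlaps 9.5% of TAP1 and had 23 to 51 counts, HLA-F-AS1 overlaps 12.3% of HLA-F and had 36 to 45 counts, and AL669918.1, on the same strand, shares 32.3% of TAP2 and had 0 to 28 counts. The annotated span of HLA-B reaches into HLA-C, with 35 shared exon bases. The part of these overlaps in the fold changes was not tested.

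Of 9 loading partners and trimming enzymes of the class I pathway, none was called higher and 2 fell (median log2 fold change -0.007). Over all tested genes 9.22% were called higher and 11.2% lower. These shares also stand beside the counts of the lists below, and no list was tested against them. CALR, whose chaperone product calreticulin sits in the peptide loading complex, fell from 2061 ± 31.8 to 1310 ± 42.7 CPM (log2 fold change -0.65, adjusted p = 8.58e-07). PDIA3, which encodes the oxidoreductase ERp57 of the same complex, fell by 0.17 on the log2 scale (adjusted p = 0.0366), but did not pass when any 1 library was left out (adjusted p = 0.067 to 0.222), nor in DESeq2 (0.082), in limma-voom (0.0543), without the robust option (0.0513), when scaled by total counts (0.0857) or with no low-count filter (0.072). ERAP1, the aminopeptidase that shortens peptides in the endoplasmic reticulum, had 57.4 and 81.6 CPM in shNC and 93.0 and 95.9 CPM in shELOVL5. Named after its values were seen, it was not called with all 4 libraries (log2 fold change 0.44, adjusted p = 0.213), but was without shNC replicate 2 (0.71, adjusted p = 0.000166) and with a replicate block (adjusted p = 0.0457). Without shNC replicate 1 its log2 fold change was 0.21 (adjusted p = 0.0936), and it was not called in limma-voom (0.054) or without the robust option (0.0783).

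Among the proteasome subunits and regulators that shape class I peptides, 1 of 9 was called higher and none lower, and the median log2 fold change was 0.007. PSMB10, the gene of an interferon-inducible catalytic subunit, rose from 22.9 ± 0.28 to 31.2 ± 1.30 CPM (log2 fold change 0.45, adjusted p = 0.0172), though not when any 1 library was left out (adjusted p = 0.0505 to 0.139). The other inducible catalytic subunit genes did not pass, with PSMB8 at 23.0 and 14.8 CPM in shNC and 14.0 and 14.3 CPM in shELOVL5 (adjusted p = 0.198) and PSMB9 at an adjusted p of 0.997. PSMB8 was called lower without shNC replicate 2 (log2 fold change -0.70, adjusted p = 0.0246), while without shNC replicate 1 its log2 fold change was -0.06. With any 1 library left out, no gene of this list was called higher. PSMB8 and PSMB9 lie in the MHC next to TAP1.

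Transcription factors that act at class I promoters moved in both directions, with 4 of 17 higher, 5 lower and a median log2 fold change of 0.10. IRF1, the factor that binds the IRF element of class I promoters, rose by 0.58 on the log2 scale (adjusted p = 0.00159). STAT2 rose by 0.52 (adjusted p = 0.00622), though not without shELOVL5 replicate 2 (adjusted p = 0.072).

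IRF9, the DNA-binding partner of STAT2 and also named after its values were seen, had 143 and 159 counts in shNC and 294 and 551 in shELOVL5. Its shELOVL5 libraries differed widely, and its log2 fold change of 1.45 missed the threshold (adjusted p = 0.0615). Other fits called it higher, with an adjusted p of 2.4e-05 in DESeq2, 0.043 in limma-voom, 0.0195 in edgeR without the robust option and 0.00145 with a replicate block. So did edgeR when shELOVL5 replicate 1 (0.000578) or shELOVL5 replicate 2 (0.0406) was left out. It was not called without shNC replicate 1 (0.444) or shNC replicate 2 (0.359), with no low-count filter (0.054), with a filter of 1 CPM (0.0648), with RLE size factors (0.0625) or when scaled by total counts (0.0593).

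The RFX and NFY proteins and CREB1 form the complex on class I promoters that NLRC5 joins. NFYA fell from 236 ± 11.1 to 183 ± 2.17 CPM (log2 fold change -0.37, adjusted p = 0.000489). The following were named after their values were seen. RFX5 fell by 0.22 (adjusted p = 0.0198), RFXANK by 0.23 (0.0365), CREB1 by 0.30 (0.00893) and USF1 by 0.42 on the log2 scale (0.00757), and RFXAP rose by 0.36 (0.032). Each of these 5 lost its call when 1 or more libraries were left out. RFXANK and RFXAP also lost it in DESeq2 (adjusted p = 0.0843 and 0.078) and, with RFX5, when low counts were not filtered (0.0822, 0.0742 and 0.0554). RFXANK further lost it in limma-voom (0.059), without the robust option (0.0535) and when scaled by total counts (0.071). Without shELOVL5 replicate 1 the adjusted p was 0.0613 for RFX5, 0.144 for RFXANK, 0.0661 for CREB1 and 0.25 for RFXAP. Without shELOVL5 replicate 2 it was 0.142, 0.154, 0.0545 and 0.0662, and 0.0767 for USF1. Without shNC replicate 1 RFX5 (0.094) and RFXAP (0.0899) did not pass, nor RFXANK (0.172) and RFXAP (0.0953) without shNC replicate 2. Of the 17 factors, 3 were called higher and 1 lower without shELOVL5 replicate 2, and 2 lower without shELOVL5 replicate 1.

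Of 7 interferon receptor and receptor kinase genes, 2 rose and none fell, with a median log2 fold change of -0.007. JAK1, the kinase shared by type I and type II interferon receptors, rose from 132 ± 0.966 to 179 ± 8.54 CPM (log2 fold change 0.45, adjusted p = 0.000241). IFNAR2, a chain of the type I receptor, rose by 0.25 (adjusted p = 0.013), but not without shELOVL5 replicate 1 (adjusted p = 0.154) or with no low-count filter (0.0532). Neither chain of the interferon gamma receptor passed.

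In a list of 9 genes linked to the control of class I genes or proteins, 3 fell and 1 rose (median log2 fold change -0.14). EZH2, the methyltransferase of Polycomb repressive complex 2, which is known to silence class I genes in tumours, fell from 238 ± 11.9 to 182 ± 3.52 CPM (log2 fold change -0.38, adjusted p = 0.000431). MARCHF9, a ubiquitin ligase that takes class I molecules from the surface, fell by 0.38 (adjusted p = 0.00327). SPPL3, an intramembrane protease, fell by 0.30 (adjusted p = 0.0178), but not without shNC replicate 2 or either shELOVL5 library (adjusted p = 0.0777 to 0.104). SUSD6, part of a membrane complex that sends class I molecules to degradation, rose from 41.5 ± 1.24 to 55.8 ± 1.16 CPM (adjusted p = 0.00603), though not without shELOVL5 replicate 1 (adjusted p = 0.0625).

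**Figure D5:**
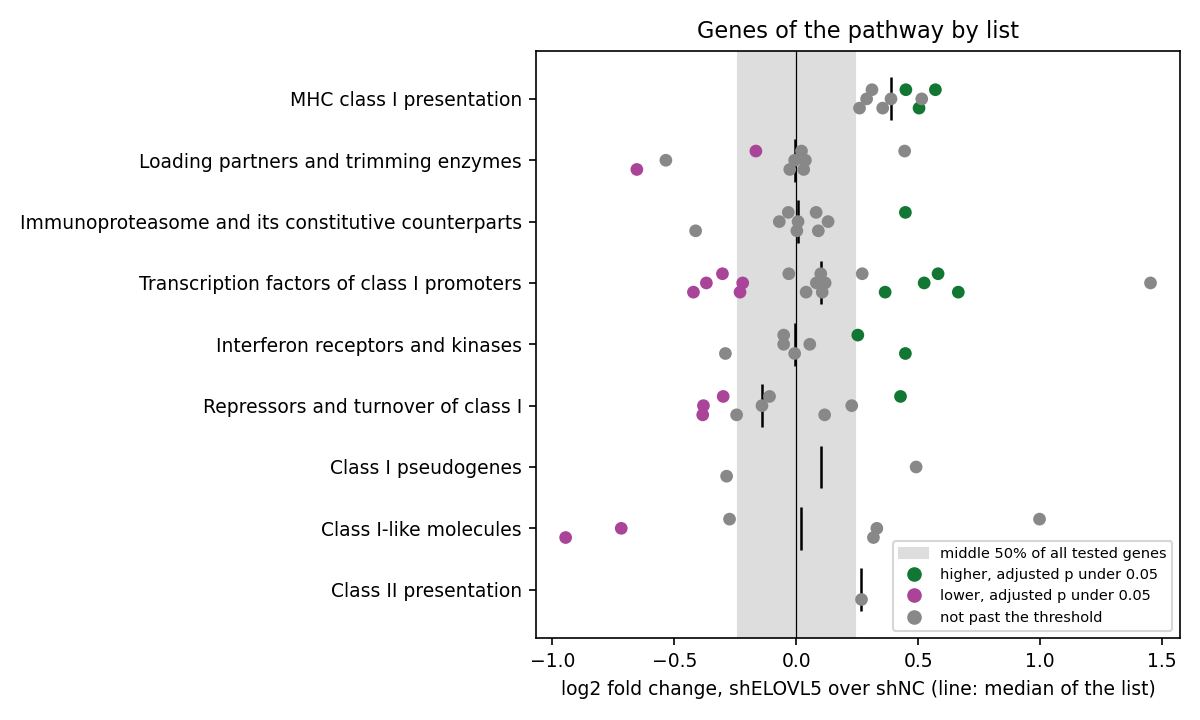
Log2 fold change of every tested gene in the 9 class I genes and in 8 lists around them, with the median of each list as a black line and the middle 50% of all tested genes in grey. The class I presentation genes are all to the right of 0 with a median of 0.39, while the loading partners, proteasome subunits and interferon receptors have medians near 0.

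Among genes outside the classical class I pathway, none of the few tested class I-like or class II genes was called higher, beside 9.22% of all tested genes. Of 9 class I-like genes 6 were tested and 2 fell. ULBP1, a stress ligand of the natural killer receptor NKG2D, fell from 22.8 ± 1.52 to 11.8 ± 0.654 CPM (log2 fold change -0.95, adjusted p = 0.0014), and FCGRT, the neonatal Fc receptor heavy chain that also pairs with beta-2 microglobulin, from 33.9 ± 0.993 to 20.6 ± 0.349 CPM (adjusted p = 0.00122). MICA, another NKG2D ligand, named after its values were seen, had 33 and 31 counts in shNC and 74 and 58 in shELOVL5. It just missed the threshold (log2 fold change 1.00, adjusted p = 0.0529), which it passed when scaled by total counts (0.0459) or with primary-assembly identifiers alone (0.0457). It was further from it in DESeq2 (0.171), in limma-voom (0.0762), with no low-count filter (0.096), with a replicate block (0.0724) and with any 1 library left out (0.122 to 0.27). HLA-G had 0 counts in every library. The pseudogene HLA-H, which resembles the classical heavy chains, had 64 and 87 counts in shNC and 127 and 93 in shELOVL5 (log2 fold change 0.49, adjusted p = 0.263). Of the 5 pseudogenes 2 were tested and neither was called. Of 9 class II genes only CIITA, the class II counterpart of NLRC5, had enough counts to be tested, at 5.20 ± 0.219 and 6.26 ± 0.459 CPM (adjusted p = 0.505). HLA-DRA had 0 counts and CD74 at most 5 in any library. Rows outside the primary annotation carry no symbol here, so the 0 counts of HLA-G and HLA-DRA describe their primary-assembly rows alone.

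The genes whose pattern over the 4 libraries was most like the mean of the heavy chains were CLTB, M6PR, ZNF865, MAPK8IP3 and VCL. Likeness was the Euclidean distance to the mean profile of HLA-B, HLA-C, HLA-E and HLA-F in log2 CPM centred on each gene's mean. It was taken over 5276 genes with a symbol and a mean of at least 50 CPM outside the lists. That profile stood at -0.39 and -0.09 in shNC and 0.27 and 0.20 in shELOVL5, and the distances were 0.064 to 0.107. With equal weight per gene, the gap between the controls in the profile mostly reflected HLA-F (6.71 and 11.8 CPM) and HLA-E (23.9 and 30.0 CPM). The controls of HLA-B (286 and 286 CPM) and HLA-C (225 and 235 CPM) were close, so the profile is not the shape of these genes. CLTB, the clathrin light chain B gene, had 50.9 and 60.7 CPM in shNC and 75.7 and 75.3 CPM in shELOVL5. With only 4 points from the same libraries, this is a description of shape.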

How the data were processed

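The authors deposited whole-number counts per gene, which were used as raw read counts, for 4 libraries assigned by their titles. Per the submitters' processing notes, HISAT2 2.2.0, StringTie and build hg38 were used. The counting step, the annotation release and any use of strand are not stated in those notes. Symbols came from a name table (56105 identifiers matched) and coordinates and lengths from GENCODE release 29 on GRCh38. Counts were tested with edgeR 4.0.16 in R 4.3.3: filterByExpr (minimum count 10), TMM scaling, glmQLFit (robust=TRUE) and a two-sided glmQLFTest with group as the only term. SE is the log2 fold change divided by the square root of the F statistic. The fit was tested on simulated counts. DESeq2 1.42.0, limma-voom (limma 3.58.1), other scalings and filters, a replicate block, symbol-summed or primary-assembly rows and each library left out were alternatives. Within each list of related genes, up to 4 that passed with the smallest p were named, and otherwise 1. Some others were named after their values were seen. Some named items are not reported here. The 9 genes, the lists and the settings were chosen with earlier results of these data known. Libraries of 16254002 to 17338719 counts limit precision for genes with few counts.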

Additional observations from a re-analysis of the deposited data

How the results depend on the processing

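HLA-B, HLA-C and B2M were called higher under all 14 alternatives, with adjusted p-values up to 0.00361 (HLA-C with no low-count filter), and no gene of the 9 was called lower under any. Of 126 gene values, 123 kept their direction and side of the threshold and 2 became significant, HLA-E and HLA-F without shNC replicate 2, so that 3 to 5 genes were called higher when a library was left out. The log2 fold change of TAP1 ranged from -0.163 without shELOVL5 replicate 2, a reversal, to 0.729 without shELOVL5 replicate 1. Over all genes 3562 passed, against 2243 with no low-count filter, where 31428 were tested, and 1872 to 2963 with a library left out. Scaling by total counts only moved the median log2 fold change of all genes from 0.006 to 0.042. With a replicate block, 3 of the 9 genes were called higher and 3453 genes passed in all. Deviations of libraries with equal replicate numbers had a correlation of 0.065 over 10793 genes, and nothing else in the labels pairs them. Summing identifiers by symbol added no row to any of the 9, since rows on alternate haplotypes carry no symbol here. HLA-F, TAP1 and TAP2 had the largest SEs of the 9, 0.205 to 0.36. Taken as plain read counts, the shELOVL5 values of TAP1 differed by more than counting error.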
